A study of Mus musculus with 2 samples.

Results

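The genes Otx1, Otx2, En1, En2, Gbx2, Lhx2, Emx2, Rax and Fezf1 encode transcription factors of forebrain, midbrain and boundary identity. They were found by symbol, and each of the 9 symbols matched 1 row among the 32285 genes of the deposited count matrices. Whole mouse embryos of embryonic day 9.5 had been dissociated for 2 single-cell RNA sequencing libraries, a wild-type one and one with a germline knockout of Usb1 (Usb1-null), to look for defects of the knockout by cell type. The Usb1 protein is an exonuclease that processes the tail of U6 small nuclear RNA, and the 5′ exons of its gene were deleted by CRISPR/Cas9. By the study's own account mutant embryos are reduced in size at this stage, and no treatment is named for either group. The sources used here do not name the strain or the litters, or say how many embryos went into each library.

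Counts are unique molecular identifiers (UMIs), each standing for 1 captured transcript read near its 3′ end. The wild-type library held 21732106 UMIs in 15161 kept cells and the Usb1-null library 33383886 in 13018, with medians of 1243 and 2299.5 UMIs per cell. The libraries shared 61 cell barcodes. Xist had 53276 wild-type and 26 Usb1-null UMIs, whereas 4 Y-linked genes had 14 and 23463, so the sex of the embryos and their genotype cannot be told apart. Usb1 itself had 68 and 47 UMIs. In CPM, the scaled level defined below, it was at 3.13 (2.43 to 3.97) in the wild-type and 1.41 (1.03 to 1.87) in the Usb1-null library. These intervals do not overlap, so Usb1 was lower in the Usb1-null library beyond counting error. Reads near the 3′ end would miss the deleted 5′ exons, but read positions were not examined. The Usb1 counts therefore do not show whether the exons were deleted. With 1 library per group there is no replicate and no test, and each comparison is between these libraries. All intervals are 95% intervals of counting error alone and carry nothing on the spread between embryos or preparations. A ratio is Usb1-null over wild-type in CPM, which are UMIs scaled to the total of all genes in the same cells. A gene was called higher or lower in the Usb1-null library when it had at least 20 UMIs in both libraries together, a ratio past 1.5-fold and an interval that excludes 1.

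The early neural tube is divided along its length by combinations of such factors, most of which carry a homeodomain. Otx2 is required for the forebrain and midbrain, and its caudal border against Gbx2 sets the position of the midbrain-hindbrain boundary, a signalling centre that secretes Fgf8 and Wnt1 and whose flanks express En1 and En2. Farther forward, Lhx2 and Rax are needed for the eye field, Emx2 for the dorsal telencephalon and Fezf1 for the rostral forebrain.

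A homeodomain reads DNA with its last helix, and a residue in that helix differs between the Otx proteins and the other 5 factors printed here. The coding stretch for it is shown for 7 of the 8 factors in which it was found, because it holds a sequence feature that divides them. Each line runs 5′ to 3′ from the codon of an invariant tryptophan. The capitals mark the codon of that residue, a lysine codon in Otx1 and Otx2 and a glutamine codon in the other 5. The last codon but 1 and the last codon, neither of them marked, also divide them. They are tgc and cgc in Otx1 and Otx2 and other codons in the other 5.
Otx1: tggttcAAGaaccgccgcgccaagtgccgc
Otx2: tggtttAAGaatcgaagagctaagtgccgc
En1: tggttcCAAaacaagcgtgccaagatcaag
En2: tggttcCAGaacaagcgggccaaaatcaag
Gbx2: tggttcCAGaaccgccgggccaagtggaaa
Lhx2: tggtttCAGaatgcccgggccaagttcagg
Emx2: tggtttCAGaaccggagaacgaaattcaaa

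These stretches come from the GENCODE M21 transcripts of GRCm38. They lie in exon 5 of Otx1 (chr11:21997026-21997055, minus strand), exon 5 of Otx2 (chr14:48659294-48659323, minus), exon 2 of En1 (chr1:120607058-120607087, plus), exon 2 of En2 (chr5:28170304-28170333, plus), exon 2 of Gbx2 (chr1:89928758-89928787, minus), exon 5 of Lhx2 (chr2:38368845-38368874, plus) and exon 3 of Emx2 (chr19:59463889-59463918, plus). Of the 30 bases, En1 and En2 shared 27 and Otx1 and Otx2 shared 24, as many as Otx1 shared with Gbx2. Rax also carries a homeodomain, which is not printed here, and Fezf1 is a zinc-finger protein without one.

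Cells were clustered with the 9 genes left out of the genes used, so the regions below were not drawn from the factors themselves. The neural cells numbered 4886 in the wild-type library (32.2% of kept cells) and 4259 in the Usb1-null library (32.7%). Regions carry the suffix "-like" because they were named from marker genes alone, none of them 1 of the 9, and single clusters are called by 1 of their 10 leading genes. There were 3 forebrain-like clusters with 1213 cells together and 1 optic vesicle-like cluster of 255 cells, in which 3 of 8 optic vesicle markers were raised. A cluster of 749 cells led by Dmbx1 had raised markers of both the midbrain and the boundary, and a cluster of 351 cells led by Cnpy1, Fgf8, Pax8, Pax5 and Fgf17 was boundary-like. The first of these pairs is joined below as forebrain and optic (1468 cells) and the second as midbrain and boundary (1100 cells), and the remaining 6577 neural cells are called other neural.

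Most of the factors were concentrated in 1 or both of these groups, and Gbx2 was not. Among the UMIs of both libraries, midbrain and boundary cells held 59.2% (55.2 to 63.1) of En1 and 55.4% (49.7 to 60.9) of En2, against 4.0% of the UMIs of all genes. Forebrain and optic cells held 69.3% (61.3 to 76.5) of Rax, 65.6% (61.4 to 69.6) of Lhx2 and 56.4% (48.8 to 63.8) of Fezf1, against 5.12% of all UMIs. Otx1 and Otx2 were divided between both groups, with 30.5% and 32.3% of their UMIs in forebrain and optic cells and 27.4% and 24.1% in midbrain and boundary cells. Emx2 had 36.6% in forebrain and optic cells, 22.9% in other neural cells and 10.9% in intermediate mesoderm-like cells, the source of the kidney and gonads, where Emx2 is also known to act. Neural cells held 38.7% (31.0 to 46.9) of the Gbx2 UMIs, near the 31.6% of all genes, and at least 60.3% of the UMIs of each other factor.

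**Figure D1:**
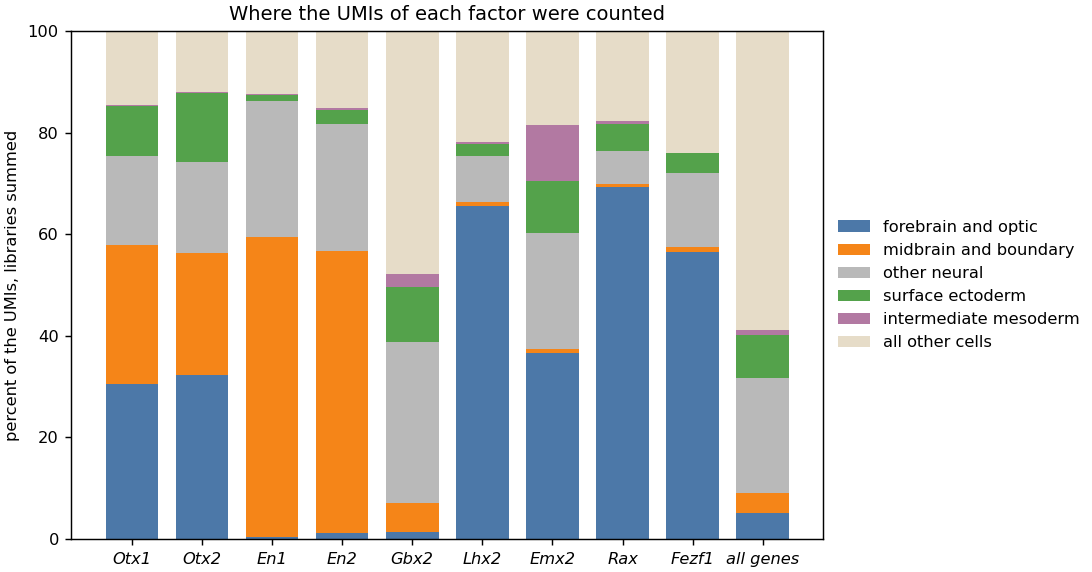
Share of each factor's UMIs, in percent with both libraries summed, that was counted in 6 classes of cells, with all genes in the last bar. En1 and En2 draw most of their bars from midbrain and boundary cells, Lhx2, Rax and Fezf1 from forebrain and optic cells, and Gbx2 from outside the neural cells.

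Otx2 (ENSMUSG00000021848, chr14:48657677-48673819, minus strand) was abundant in the forebrain-like, optic vesicle-like and Dmbx1-led cells of both libraries and low behind them. In the Dmbx1-led cluster it reached 552 CPM (293 UMIs, 490.2 to 618) in the wild-type and 495 CPM (471 UMIs, 452 to 542) in the Usb1-null library. Forebrain-like cells had 415 CPM (375 to 459) and 398 CPM (364 to 433), and optic vesicle-like cells 290.5 CPM (226 to 367) and 272 CPM (218 to 335). In all 3 regions the intervals of the libraries overlapped. In boundary-like cells the level was 66.0 CPM (37.7 to 107) in the wild-type and 41.5 CPM (25.4 to 64.1) in the Usb1-null library, and in hindbrain-like and spinal cord-like cells it was 9.15 CPM and 6.87 CPM with both libraries summed. The caudal drop, from 516 CPM (479.6 to 553) in the Dmbx1-led cluster to 49.7 CPM (34.8 to 68.8) in the boundary-like cluster over both libraries, was far outside the counting intervals. Forebrain-like cells, at 405 CPM (379 to 432), also lay below the Dmbx1-led cluster and above the optic vesicle-like cells, at 279.7 CPM (238 to 327), beyond counting error.

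The value in cells that should lack the gene sets a floor for low levels, since free RNA in a droplet is counted with the cell. Otx2 had 24.3 CPM (16 to 35.4) in primitive erythroid-like cells and 14.7 CPM (10.2 to 20.6) in cardiomyocyte-like cells, so its hindbrain-like and spinal cord-like values were at or below this background. Surface ectoderm-like cells, which can hold the cranial placodes where Otx2 is also known to be expressed, had 95.2 CPM (86.6 to 104), above it.

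Otx1 (ENSMUSG00000005917, chr11:21994764-22002897, minus strand) is the paralog of Otx2 and is known for later roles in the cortex and the inner ear. In the Dmbx1-led cluster it was counted at 126 CPM (97.7 to 160.2) in the wild-type and 107 CPM (87.5 to 130.2) in the Usb1-null library, and in forebrain-like cells at 96.8 CPM (77.8 to 119) and 79.5 CPM (65.1 to 96.2). The intervals of the libraries overlapped in both regions. Optic vesicle-like cells, in which Otx2 was abundant, had 3 and 2 UMIs of Otx1, a level of 8.91 CPM (2.89 to 20.8) over both libraries. That level lay at the erythroid-like background of 9.01 CPM (4.32 to 16.6). The cardiomyocyte-like background was lower, at 2.17 CPM (0.703 to 5.06), with an interval that overlapped that of the optic vesicle-like cells. Otx1 was thus near background in the optic vesicle-like cells, where Otx2 was not, and both dropped at the boundary, where Otx1 was at 15.2 CPM (7.59 to 27.2).

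Cells with a UMI of Otx1 were more frequent among neural cells that had a UMI of Otx2 than among those without. The shares were 13.8% (11.3 to 16.5) against 2.27% in the wild-type and 20.3% (17.5 to 23.2) against 2.17% in the Usb1-null library. With every cell thinned to 709 UMIs they were 7.63% (5.17 to 10.8) against 1.49% and 7.89% (5.17 to 11.4) against 1.5%. At equal depth the libraries no longer differed beyond counting error, and the gap between cells with and without Otx2 stayed. The cells without Otx2 include regions low in both genes, so this gap does not separate shared region from the same cell. Unthinned, Otx1 was met in 12.4% and 17.6% of the forebrain and optic cells with Otx2. In midbrain and boundary cells with Otx2 the shares were 19.0% and 24.8%.

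**Figure D2:**
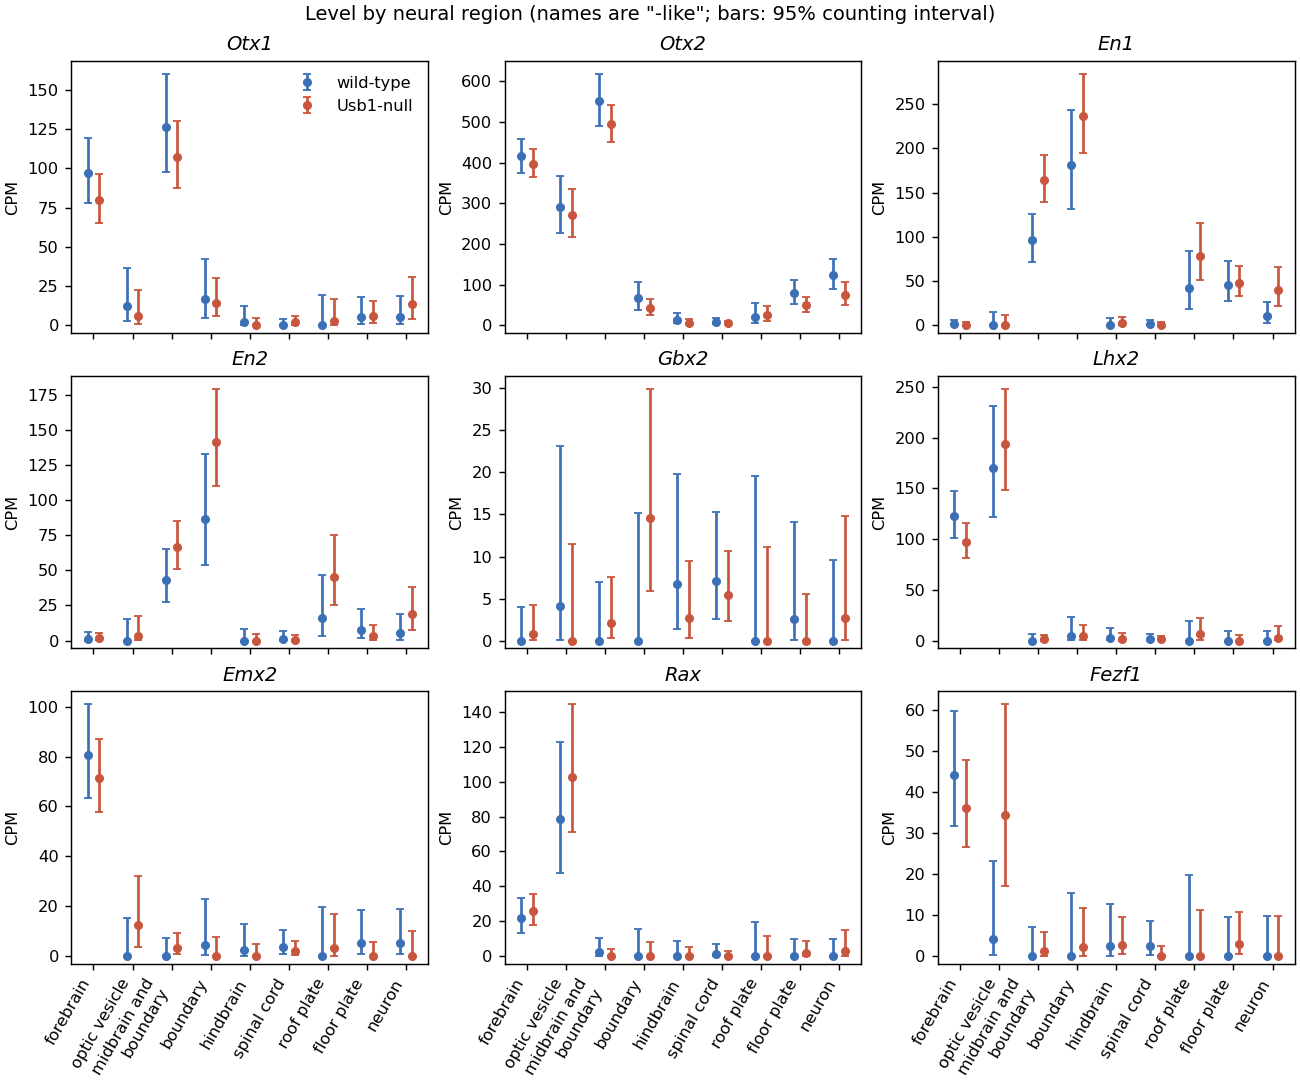
CPM of each factor in 9 classes of neural cells, in the wild-type and the Usb1-null library, as points with 95% counting intervals, 1 library per group. En1 and En2 peak in boundary-like cells of both libraries, whereas Lhx2 and Rax peak in optic vesicle-like cells and Emx2 and Fezf1 in forebrain-like cells.

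En1 (ENSMUSG00000058665, chr1:120602418-120607992, plus strand) and En2 (ENSMUSG00000039095, chr5:28165694-28172166, plus strand) are the vertebrate engrailed genes, required for the midbrain and cerebellum. Both were highest in boundary-like cells. En1 was there at 182 CPM (44 UMIs, 132 to 244) in the wild-type and 237 CPM (114 UMIs, 195 to 284) in the Usb1-null library, and in the Dmbx1-led cluster at 96.0 CPM (51 UMIs, 71.5 to 126) and 164 CPM (156 UMIs, 139 to 192). The intervals of the libraries overlapped in the former cluster and not in the latter, where the ratio was 1.71 (1.24 to 2.39) and the gene was higher in the Usb1-null library. En2 was at 86.6 CPM (21 UMIs, 53.6 to 132) and 141 CPM (68 UMIs, 109.7 to 179) in boundary-like cells, a ratio of 1.63 (0.987 to 2.80), and at 43.3 CPM (23 UMIs, 27.4 to 65.0) and 66.3 CPM (63 UMIs, 50.9 to 84.8) in the Dmbx1-led cluster, a ratio of 1.53 (0.936 to 2.59). Neither En2 interval excluded 1 in a single cluster. Forebrain-like cells had 2 UMIs of En1 over both libraries and optic vesicle-like cells had 0, so En1 was not detectable there above the 4.77 CPM (2.38 to 8.53) of cardiomyocyte-like cells.

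The paralogs parted in the floor plate, the ventral midline that secretes Shh. A floor plate-like cluster of 120 cells led by Dkk2 had En1 at 206 CPM (49 UMIs, 153 to 273), within the counting error of the boundary-like cells, and Otx2 at 257 CPM (61 UMIs, 196 to 329.8). En2 was at 16.8 CPM (4 UMIs, 4.59 to 43.1) in those cells, below its 58.0 CPM (46.4 to 71.7) in the Dmbx1-led cluster, whereas En1 had 139.7 CPM (121 to 160.1) there, an interval that overlapped that of the floor plate-like cells. The larger floor plate-like cluster of 453 cells, led by Dchs2, had 1 UMI of En1, 1 of En2 and 3 of Otx2. Both libraries took part in the smaller cluster, with En1 at 183 CPM (18 UMIs) in 66 wild-type and 223 CPM (31 UMIs) in 54 Usb1-null cells. Wnt1, listed here as a marker of both midbrain and roof plate, and Lmx1b, listed for the midbrain, were raised in it beside Shh and Foxa2. Roof plate-like cells held both paralogs, with En1 at 65.6 CPM (45.4 to 91.7) and En2 at 34.7 CPM (20.6 to 54.9).

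Gbx2 (ENSMUSG00000034486, chr1:89927956-89931179, minus strand), the factor caudal to the Otx2 border, was scarce. It had 42 UMIs in the wild-type and 113 in the Usb1-null library over all cells, of which 19 and 41 were in neural cells. Its level was at most 9.67 CPM (3.89 to 19.9) in any neural region, reached in boundary-like cells, where all 7 UMIs were from the Usb1-null library. Those 188 cells gave 14.5 CPM (5.84 to 29.9), and the 163 wild-type cells gave 0 UMIs, which allows up to 12.4 CPM, and the interval of the ratio starts at 0.725, so a difference was not detectable at this depth. The next named regions in the order, spinal cord-like at 6.01 CPM (3.29 to 10.1) and hindbrain-like at 4.16 CPM (1.35 to 9.70), did not differ from boundary-like cells beyond counting error. Among the cells with a UMI of Gbx2, 1 of 19 in the wild-type and 4 of 41 in the Usb1-null library had a UMI of Otx2, shares of 5.26% (0.133 to 26.0) and 9.76% (2.72 to 23.1) beside 14.5% and 19.0% of the cells without Gbx2. A mutual exclusion of Otx2 and Gbx2 by cell was not detectable at this depth.

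Lhx2 (ENSMUSG00000000247, chr2:38339281-38369733, plus strand), a LIM-homeodomain factor, was highest in optic vesicle-like cells, at 170.1 CPM (41 UMIs, 122 to 231) in the wild-type and 194 CPM (62 UMIs, 148 to 248) in the Usb1-null library. Forebrain-like cells had 123 CPM (114 UMIs, 101 to 147) and 97.5 CPM (130 UMIs, 81.5 to 116). The step between these regions lay outside the counting intervals over both libraries, from 184 CPM (149.8 to 223) to 108 CPM (94.7 to 122). In the next named region of the order, boundary-like cells, Lhx2 was at 4.14 CPM (0.855 to 12.1), not distinguishable from the 1.73 CPM (0.472 to 4.44) of cardiomyocyte-like cells, and in the Dmbx1-led cluster it had 1 UMI.

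Rax (ENSMUSG00000024518, chr18:65928277-65939787, minus strand), known for specifying the retina, followed the same outline on fewer UMIs. It was at 78.8 CPM (19 UMIs, 47.5 to 123) in the wild-type and 103 CPM (33 UMIs, 70.9 to 145) in the Usb1-null library in optic vesicle-like cells, and at 21.5 CPM (20 UMIs, 13.1 to 33.2) and 25.5 CPM (34 UMIs, 17.7 to 35.6) in forebrain-like cells. The step between these regions lay outside the intervals in each library. Every other named neural region had at most 1 UMI of Rax.

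Emx2 (ENSMUSG00000043969, chr19:59458372-59465357, plus strand) had 0 and 4 UMIs in optic vesicle-like cells and stood at 80.7 CPM (75 UMIs, 63.5 to 101) in the wild-type and 71.3 CPM (95 UMIs, 57.6 to 87.1) in the Usb1-null library in forebrain-like cells. Emx2 was also abundant, at 139 CPM (73 UMIs, 109 to 175), in a cluster of 233 cells led by Wnt8b, Rspo2 and Rspo3, in which 6 of 10 roof plate and 5 of 15 forebrain markers were raised, so that it was left unnamed and counted as other neural. This cluster also held Otx1 at 114 CPM (87.1 to 147) and Otx2 at 458 CPM (402 to 519.9), with Lhx2 at 15.2 CPM (6.57 to 30), below the 108 CPM (94.7 to 122) of the forebrain-like cells. Outside the neural cells, intermediate mesoderm-like cells had Emx2 at 102 CPM (75.9 to 133) over both libraries. The level was 144 CPM (25 UMIs) in the wild-type and 80.0 CPM (27 UMIs) in the Usb1-null library.

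Fezf1 (ENSMUSG00000029697, chr6:23245044-23248362, minus strand), a zinc-finger repressor, was at 44.1 CPM (41 UMIs, 31.6 to 59.8) in the wild-type and 36.0 CPM (48 UMIs, 26.5 to 47.7) in the Usb1-null library in forebrain-like cells. In optic vesicle-like cells the wild-type library had 1 UMI among 149 cells and the Usb1-null library 11 among 106, levels of 4.15 CPM (0.105 to 23.1) and 34.3 CPM (17.1 to 61.5) with a ratio of 8.28 (1.20 to 356). These UMIs were fewer than a call requires, and 1 of the intervals of the levels lay partly within the other.

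**Figure D3:**
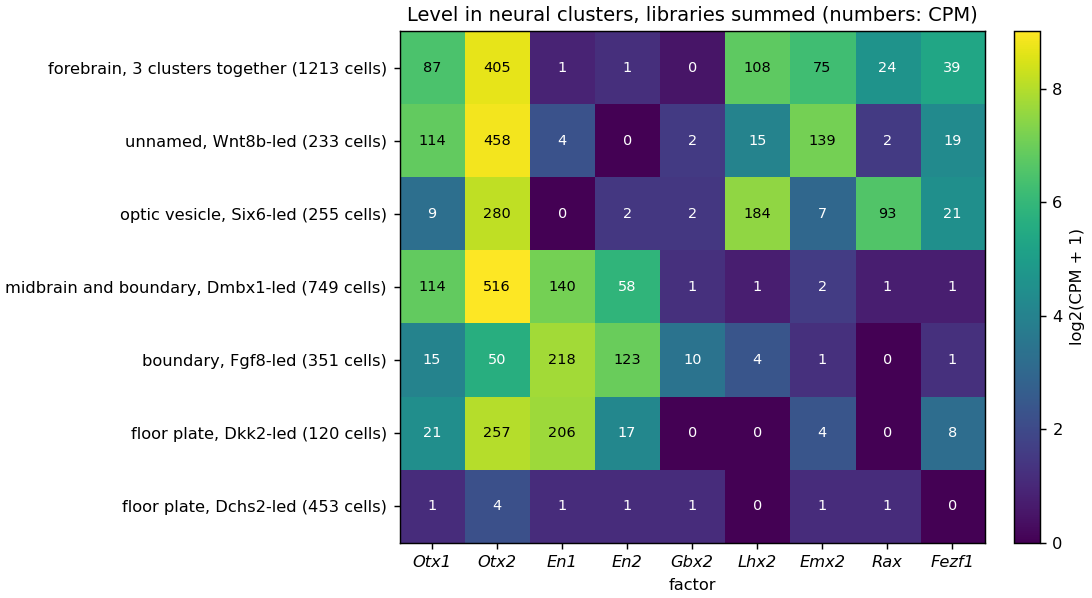
Level of the 9 factors in 6 neural clusters and in all forebrain-like cells, with both libraries summed, with the CPM printed in each square and coloured on a log2(CPM + 1) scale. Otx2 falls from the Dmbx1-led to the Fgf8-led boundary-like cluster, where En1 and En2 peak, and the Dkk2-led floor plate-like cluster holds Otx2 and En1 with little En2.

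Over all kept cells, both engrailed genes and Gbx2 were higher in the Usb1-null library. En1 had 176 UMIs, or 8.10 CPM (6.95 to 9.39), in the wild-type and 441 UMIs, or 13.2 CPM (12.0 to 14.5), in the Usb1-null library, a ratio of 1.63 (1.37 to 1.95). En2 had 83 UMIs (3.82 CPM) and 233 UMIs (6.98 CPM), a ratio of 1.83 (1.42 to 2.38), and Gbx2 1.93 CPM and 3.38 CPM, a ratio of 1.75 (1.22 to 2.56). These 3 of the 9 factors were higher and none was lower. Among all 18921 genes with enough UMIs, 14.4% were called, 9.01% higher and 5.36% lower, so calls of this size were common between these libraries. The other 6 factors had ratios from 0.726 to 1.04. Otx2 had 1367 UMIs, or 62.9 CPM (59.6 to 66.3), and 1953 UMIs, or 58.5 CPM (55.9 to 61.2), a ratio of 0.930 (0.867 to 0.997). Emx2 had 10.4 CPM and 7.52 CPM, a ratio of 0.726 (0.604 to 0.873).

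**Figure D4:**
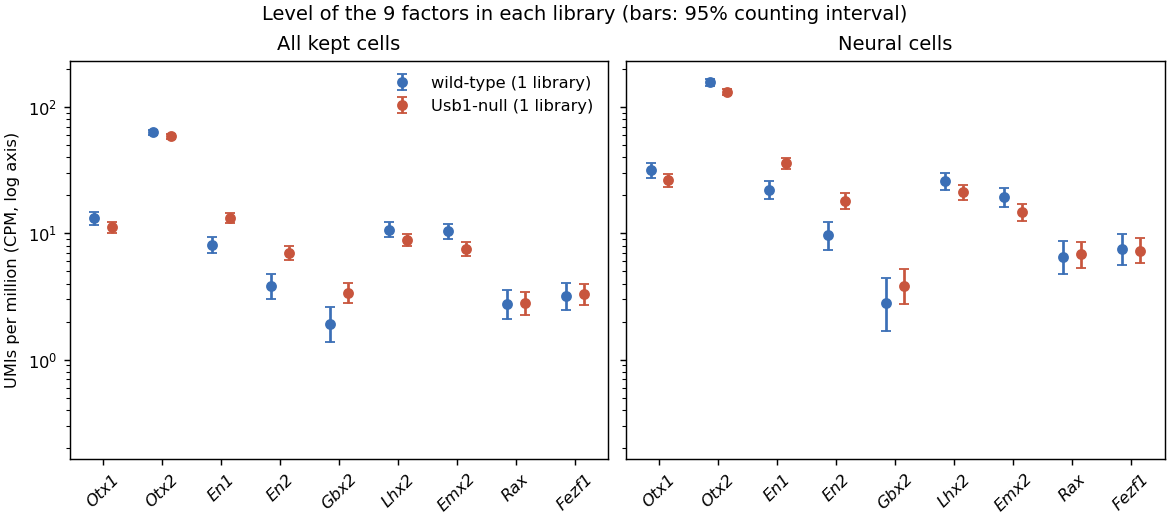
Level of each factor in CPM on a log axis, over all kept cells and over neural cells, as points with 95% counting intervals for the wild-type and the Usb1-null library. The intervals of En1 and En2 do not overlap between the libraries in either panel, whereas those of Gbx2 overlap in neural cells.

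Within the neural cells 2 calls remained. En1 was at 22.1 CPM (149 UMIs, 18.7 to 25.9) in the wild-type and 35.9 CPM (383 UMIs, 32.4 to 39.7) in the Usb1-null library, a ratio of 1.63 (1.34 to 1.98). En2 was at 9.62 CPM (65 UMIs, 7.43 to 12.3) and 18.1 CPM (193 UMIs, 15.6 to 20.8), a ratio of 1.88 (1.41 to 2.53). Both were higher, and of all 15786 genes tested in neural cells 13.2% were called, 6.97% higher and 6.23% lower. Gbx2 stood at 2.81 and 3.84 CPM with a ratio of 1.37 (0.775 to 2.49), so its call over all cells was not met among neural cells. Otx1 (214 and 282 UMIs), Otx2 (1056 and 1407), Lhx2 (174 and 225), Emx2 (130 and 157), Rax (44 and 73) and Fezf1 (51 and 78) had ratios of 0.834, 0.843, 0.818, 0.764, 1.05 and 0.968. None of these 6 was past 1.5-fold. The median log2 ratio was -0.05 over the 9 factors and 0.00 over all genes tested.

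The mix of neural regions also differed between the libraries. Midbrain and boundary cells were 11.1% (10.2 to 12.0) of the neural cells in the wild-type library and 13.1% (12.1 to 14.2) in the other, a ratio of 1.19 (1.06 to 1.32), and boundary-like cells alone 3.34% and 4.41%, a ratio of 1.32 (1.08 to 1.63). Forebrain and optic cells made up 16.9% and 15.1%, a ratio of 0.892 (0.811 to 0.980). With only cells of at least 1000 genes counted, the share ratio was 1.06 (0.931 to 1.21) for midbrain and boundary, an interval that includes 1, and 0.740 (0.665 to 0.824) for forebrain and optic. That limit lay near the median of 1008 genes per kept cell in the wild-type library and well below the median of 1641 in the Usb1-null library. Neuron-like cells made up 6.18% and 3.59%, a ratio of 0.581 (0.481 to 0.703), the only named region past 1.5-fold. The share of a region in 1 library each says nothing on how it varies between embryos. With the wild-type shares of the regions applied to both libraries, the En1 ratio was 1.47 (1.21 to 1.78), under the 1.5-fold limit, and the En2 ratio 1.69 (1.27 to 2.25), still past it. Otx2 moved to 0.883 (0.815 to 0.957) and Lhx2 to 0.914 (0.748 to 1.12).

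**Figure D5:**
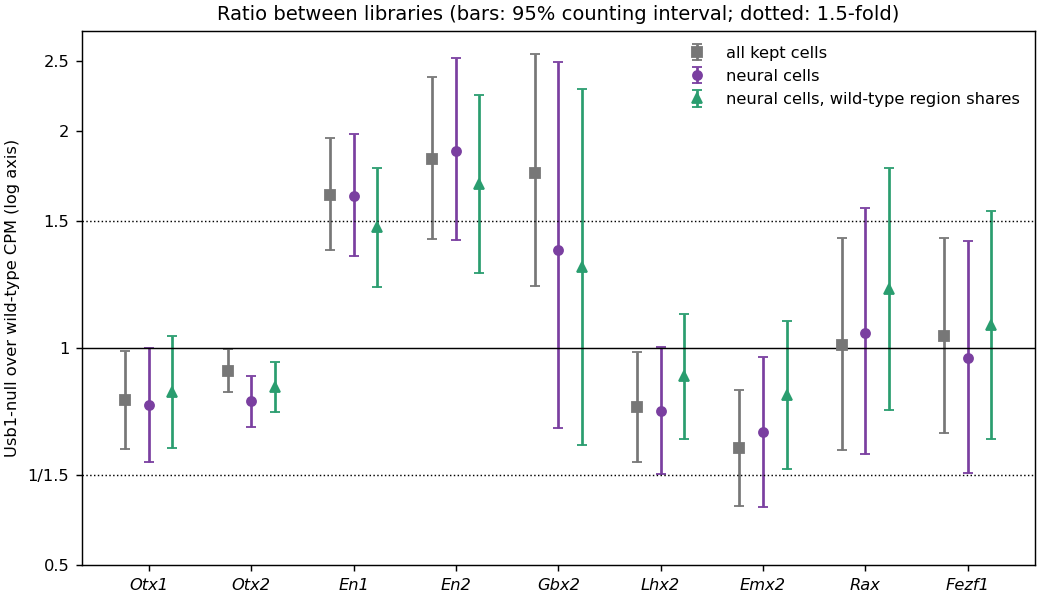
Usb1-null over wild-type ratio of CPM for each factor on a log axis, over all kept cells, over neural cells and over neural cells with the wild-type region shares applied to both libraries, with 95% counting intervals and dotted lines at 1.5-fold in each direction. En1 and En2 lie above 1 in all 3 versions, and En1 comes to 1.47 under the wild-type shares.

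The engrailed genes were also higher among midbrain and boundary cells taken by themselves. En1 was at 123 CPM (99.4 to 150.1) in the wild-type and 189 CPM (167 to 212) in the Usb1-null library, a ratio of 1.54 (1.21 to 1.961), and En2 at 56.9 CPM (41.3 to 76.4) and 91.5 CPM (76.5 to 109), a ratio of 1.61 (1.13 to 2.32). These were 2 of the 4 factors with enough UMIs there, and of the 10613 genes tested in these cells 11.2% were called, 4.64% higher and 6.58% lower. Otx2 had a ratio of 0.858 (0.743 to 0.993) and Otx1 of 0.829 (0.609 to 1.13). The En1 call ended when the factors were allowed into the clustering, at 1.43 (1.14 to 1.80), and when called doublets were removed, at 1.38 (1.10 to 1.75). The En2 call held under both and at a higher resolution, at 1.53 to 1.66.

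No factor was called among forebrain and optic cells. The ratios of the 6 factors with enough UMIs there ran from 0.822 for Otx1 to 1.22 for Rax, with Otx2 at 0.958 (0.847 to 1.08), Lhx2 at 0.877 (0.706 to 1.09), Emx2 at 0.935 (0.685 to 1.28) and Fezf1 at 0.995 (0.658 to 1.51). Of the 11320 genes tested in these cells, 11.7% were called, 5.06% higher and 6.6% lower. The intervals of Otx2, Lhx2 and Emx2 lie inside 1.5-fold in both directions, whereas those of Rax (0.808 to 1.85), Fezf1 and Otx1 (0.617 to 1.10) reach past it.

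Among the other neural cells, Otx2 and Emx2 were lower and En2 was higher in the Usb1-null library. Otx2 was at 60.5 CPM (291 UMIs, 53.8 to 67.9) in the wild-type and 39.4 CPM (299 UMIs, 35.1 to 44.1) in the Usb1-null library, a ratio of 0.652 (0.553 to 0.768). Emx2 was at 11.2 CPM (54 UMIs, 8.43 to 14.6) and 7.25 CPM (55 UMIs, 5.46 to 9.44), a ratio of 0.646 (0.435 to 0.958), and En2 at 4.16 CPM (20 UMIs, 2.54 to 6.42) and 7.78 CPM (59 UMIs, 5.92 to 10.0), a ratio of 1.87 (1.11 to 3.28). These were 3 of the 8 factors with enough UMIs, and of all 14890 genes tested 12.9% were called, 6.26% higher and 6.66% lower. The Otx2 and Emx2 calls rested on which clusters were counted here. Without the Wnt8b-led cluster the ratios were 0.669 (0.539 to 0.830) for Otx2 and 0.702 (0.345 to 1.44) for Emx2, and neither was called. Both calls also ended at a higher resolution, at 0.688 (0.592 to 0.799) and 0.741 (0.516 to 1.07), and with the factors allowed into the clustering, at 0.709 (0.613 to 0.821) and 0.751 (0.525 to 1.08). A cluster of 151 cells, of which 78.1% were called doublets, held 45 wild-type and 55 Usb1-null UMIs of Otx2 and 2 and 9 of En2. Without that cluster the 3 calls stayed, with En2 at 1.75 (1.003 to 3.19), and En1 was called higher at 1.51 (1.04 to 2.22), against 1.34 (0.958 to 1.89) with it. Without either cluster the En2 ratio was 1.73 (0.992 to 3.15), no longer called, the Emx2 ratio 0.498 (0.171 to 1.403), not called, and the Otx2 ratio 0.628 (0.486 to 0.812), called lower. With called doublets removed, Otx1 was called lower at 0.627 (0.423 to 0.930) and En1 higher at 1.74 (1.14 to 2.74).

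These cells are a mixture of clusters. The Wnt8b-led cluster held 37 of the 54 wild-type and 36 of the 55 Usb1-null UMIs of Emx2, with levels of 159 and 123 CPM and a ratio of 0.770 (0.473 to 1.25). It also held 122 and 119 UMIs of Otx2, at 525 and 405 CPM with a ratio of 0.772 (0.595 to 1.002), so neither factor was called within it. Neuron-like cells held 47 and 28 UMIs of Otx2, at 123 CPM (90.0 to 163) and 74.4 CPM (49.5 to 108) with a ratio of 0.608 (0.366 to 0.991). In the neuron-like cluster with 10 of 10 neuron markers raised, Otx2 was at 159 CPM in the wild-type and 80.0 CPM in the Usb1-null library, on 45 and 21 UMIs. The other neuron-like cluster, of 125 cells, had 19.7 and 61.6 CPM, the opposite order, on 2 and 7 UMIs. Of the En2 UMIs, 3 wild-type and 15 Usb1-null UMIs were in roof plate-like cells, the dorsal midline, at 15.9 CPM (3.29 to 46.6) and 45.4 CPM (25.4 to 74.9).

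Outside the neural cells 2 factors were called. Gbx2 was at 1.54 CPM (23 UMIs, 0.973 to 2.30) in the wild-type and 3.17 CPM (72 UMIs, 2.48 to 3.99) in the Usb1-null library, a ratio of 2.06 (1.28 to 3.46), and was higher. Both levels were near background. Over both libraries Gbx2 was at 0.867 CPM (0.105 to 3.13) in cardiomyocyte-like and 0.901 CPM (0.0228 to 5.02) in primitive erythroid-like cells, intervals that overlap those levels. Emx2 was at 6.34 CPM (95 UMIs, 5.13 to 7.75) and 4.14 CPM (94 UMIs, 3.34 to 5.06), a ratio of 0.653 (0.485 to 0.877), and was lower. With called doublets removed the Emx2 ratio was 0.680 (0.494 to 0.936), which ended its call, and the Gbx2 ratio 1.87 (1.14 to 3.18). Of the 18061 genes tested in these cells 13.6% were called, 8.36% higher and 5.27% lower, beside 1 higher and 1 lower among the 9 factors.

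The share of cells with a UMI depends on depth, and the Usb1-null cells held more UMIs. Among midbrain and boundary cells, 14.8% (11.9 to 18.1) had a UMI of En1 in the wild-type and 31.7% (27.8 to 35.7) in the Usb1-null library, whose median depths there were 1289 and 2412 UMIs. Thinned to 709 UMIs per cell, which left out 487 wild-type and 19 Usb1-null neural cells that were shallower, the shares were 8.78% (6.45 to 11.6) and 12.4% (9.75 to 15.4). For En2 the shares of 7.76% and 19.3% became 3.39% (1.99 to 5.38) and 5.38% (3.66 to 7.59). The order of the libraries stayed, but the intervals overlapped. For Otx2 the order did not stay, with 38.1% and 54.8% of forebrain and optic cells before and 22.4% (19.5 to 25.6) and 21.1% (18 to 24.5) after thinning, and for Lhx2 the shares of 16.5% and 22.7% became 8.67% and 8.12%. In cardiomyocyte-like cells, with median depths of 1515 and 2679 UMIs, the thinned shares were 0.647% and 1.13% for Otx2 and 0.216% and 0.227% for En1, so the regional shares were above this background.

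En1 was found more often in cells with En2 than in cells without. Over neural cells, 19.4% (10.4 to 31.4) of the wild-type cells with En2 also had En1, against 2.26% of those without, and in the Usb1-null library the shares were 39.9% (32.3 to 47.8) and 4.71%. After thinning they were 10.7% (2.27 to 28.2) against 1.35% and 15.4% (6.88 to 28.1) against 2.22%, from 3 of 28 and 8 of 52 cells with En2. The cells without En2 include regions that lack both genes, so this gap does not separate shared region from the same cell. Among midbrain and boundary cells, 7 of 42 wild-type cells with En2 had En1, or 16.7% (6.97 to 31.4). That lay within counting error of the unthinned En1 share of all these cells given above. In the Usb1-null library it was 49 of 108, or 45.4% (35.8 to 55.2), above that share, and neither was thinned. En1 was also met in cells with Otx2. Among midbrain and boundary cells with a UMI of Otx2, 15.9% (11.1 to 21.8) had a UMI of En1 in the wild-type and 27.8% (22.5 to 33.5) in the Usb1-null library, shares that were not thinned. In forebrain and optic cells with Otx2 it was 0 of 315 in the wild-type library, with an exact upper limit of 1.16%, and 1 of 352 in the Usb1-null library.

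Genes that act with these factors were counted over neural cells from 6 lists with 64 genes, of which 53 had enough UMIs. In all, 5 were higher and 4 lower in the Usb1-null library, and their median log2 ratio was 0.09. Several of them also served as region markers. Of 11 tested telencephalon and diencephalon factors, none was higher and 1 was lower, Barhl2, at 0.387 (0.165 to 0.865) on 18 and 11 UMIs, named after its value was seen. Its ratio among forebrain and optic cells was 0.436 (0.157 to 1.13), not called. Six3, a rostral forebrain factor, was at 29.0 CPM (25.1 to 33.4) in the wild-type and 19.6 CPM (17 to 22.4) in the Usb1-null library, a ratio of 0.675 (0.553 to 0.824) that stopped short of the limit. Foxd1 had a ratio of 0.769 (0.594 to 0.996). Of 3 tested eye factors 1 was lower, Six6, at 0.471 (0.295 to 0.746) on 47 and 35 UMIs, also named after its value was seen. Among forebrain and optic cells the Six6 ratio was 0.651 (0.396 to 1.07), not called. Mitf, a pigment cell and optic vesicle factor, had a ratio of 0.840 (0.710 to 0.994) over neural cells and was lower among forebrain and optic cells, at 0.493 (0.364 to 0.664). Of 7 tested midbrain factors 1 was lower, Pou4f1, a factor of early neurons, at 9.48 and 5.62 CPM with a ratio of 0.593 (0.410 to 0.857), beside the smaller share of neuron-like cells given above. The part of that share in the Pou4f1 value was not tested. Lmx1b was at 1.35 (1.16 to 1.58).

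Of the 10 boundary genes 1 was higher. Pax8, a paired-box factor of the boundary, was at 21.5 CPM (18.1 to 25.3) in the wild-type and 45.9 CPM (41.9 to 50.2) in the Usb1-null library, a ratio of 2.14 (1.77 to 2.59). It was also higher among midbrain and boundary cells, at 1.72 (1.35 to 2.21), and among forebrain and optic cells, at 2.42 (1.25 to 5.06). Pax2, which acts with it and was counted among the eye factors, had a ratio of 1.32 (1.13 to 1.54) over neural cells and was higher among midbrain and boundary cells, at 1.89 (1.44 to 2.5). The secreted signals did not share that direction. Fgf8, the main signal of the boundary, had 215 and 387 UMIs and a ratio of 1.14 (0.962 to 1.35), and of 1.01 (0.785 to 1.29) among midbrain and boundary cells. Wnt1 had 0.915 (0.770 to 1.09) over neural cells and 0.687 (0.508 to 0.931) in midbrain and boundary cells, and Fgf17 had 0.754 (0.539 to 1.06) and was lower in the latter, at 0.572 (0.348 to 0.942). Sp5 had a ratio of 1.43 (0.987 to 2.1). Pax8, Pax2, En1 and En2 were thus called higher in midbrain and boundary cells of the Usb1-null library, Fgf17 was called lower, and Fgf8 and Wnt1 were not called. Among other boundary genes, Pax5 was at 1.03 (0.932 to 1.14) there and Cnpy1 at 0.925 (0.765 to 1.12). Neither was called. Pax6, Pou3f1 and Pou3f2 were called lower there, at 0.402 (0.257 to 0.625), 0.638 (0.476 to 0.858) and 0.651 (0.497 to 0.855). Sox2 was also lower in these cells, at 0.610 (0.479 to 0.778). These genes other than Sox2 were named after their values were seen.

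Of the 10 hindbrain genes 2 were higher, Fgf3 at 1.53 (1.04 to 2.28) and Egr2 at 2.60 (1.28 to 5.81) on 10 and 41 UMIs, the latter named after its value was seen, and Hoxb2 had a ratio of 1.36 (1.15 to 1.60). Of 12 tested targets and cofactors 2 were higher and 1 lower. Dkk1, a Wnt inhibitor of the head, went from 11 CPM (8.60 to 13.8) to 21 CPM (18.3 to 23.9), a ratio of 1.92 (1.47 to 2.53), and was higher among forebrain and optic cells at 2.60 (1.78 to 3.86). Ldb1, the cofactor of LIM-homeodomain proteins such as Lhx2, was higher at 1.54 (1.36 to 1.75), named after its value was seen. Sox2, the neural progenitor factor, was lower, at 175 CPM (165 to 185) and 112 CPM (105 to 118), a ratio of 0.639 (0.589 to 0.693). Calls in these lists went in both directions, at 9 of 53 genes beside the 13.2% of all genes.

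Genes on the opposite strand overlap 5 of the factors, and the sources used here do not say whether the counting used strand. Without it, reads from an overlap cannot be told apart. Otx2os1 (chr14:48668708-48870683, plus strand), which overlaps Otx2, was at 255 CPM in forebrain and optic, 325 CPM in midbrain and boundary and 37.0 CPM in other neural cells, and had a whole-library ratio of 0.975 (0.899 to 1.06). Emx2os (chr19:59425104-59458635, minus strand) was at 38.2, 1.36 and 2.99 CPM in the same groups, with a ratio of 0.700 (0.566 to 0.867). Gm13584, opposite Lhx2 (chr2:38359580-38363980, minus strand), was at 82.1, 0.453 and 0.968 CPM, with a ratio of 0.672 (0.535 to 0.844). Emx2os and Gm13584 were highest in forebrain and optic cells, and Otx2os1 was abundant in both groups in which Otx2 was. None of the 3 was called. D130058E05Rik, opposite Gbx2 (chr1:89930234-89933290, plus strand), had 155 and 191 UMIs with a ratio of 0.802 (0.646 to 0.998), below 1 where that of Gbx2 was above. Raxos1 had 1 UMI in each library.

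The genes most like each factor were taken by Pearson's r of log2(CPM + 1) over 32 groups of cells, with libraries summed, among 15031 genes. The groups share their libraries and differ in depth and free RNA, and r is a description without a test. For Otx2 they were Otx2os1 (0.946), Otx1 (0.919) and Dmbx1 (0.80), a midbrain factor, and for Otx1 they were Otx2, Otx2os1 (0.903) and Dmbx1 (0.817). En1 was closest to 2610027F03Rik (0.868), En2 (0.865) and Cnpy1 (0.846), a modulator of Fgf signalling at the boundary. En2 was closest to Cnpy1 (0.867), En1 and 2610027F03Rik (0.801), so that the paralogs of each pair were among the nearest 3 of each other. Lhx2 was closest to Gm13584 (0.836), Six3os1 (0.824) and Six3 (0.823), Rax to Six6 (0.826), Gm26709 (0.815) and Gm13584 (0.811), and Fezf1 to Gm27199 (0.869), Nr2e1 (0.863) and Six3 (0.789). Emx2 was closest to Emx2os (0.895), Wnt7b (0.776) and E330013P04Rik (0.776). Gbx2 had no partner of that closeness, the nearest being Cbx2 (0.655), Nmral1 (0.640) and Plcxd1 (0.614). Its r with Otx2 was -0.36.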

How the data were processed

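Each library was a 10x Genomics 3′ v3.1 preparation of dissociated E9.5 embryos. The study describes a single-cell suspension, whereas the labels name nuclear RNA as the molecule. The deposited values are raw UMI counts per gene and cell that the authors made with Cell Ranger. The version is 6.1.2 in the matrix headers and 2.1.1 in the submitters' processing notes, which name the build mm10.

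Barcodes with 200 to 6000 genes and under 30% mitochondrial UMIs were kept, the study's stated limits, which left out 1 barcode of 15162 in the wild-type library and 16 of 13034 in the Usb1-null library. The numbers of cells the study states differ from these in both libraries. With the 9 genes excluded, 2000 variable genes and 30 components were corrected between libraries by a NumPy version of Harmony and clustered by Leiden with scanpy 1.11.5, at resolution 0.8 for all cells and 1.4 for neural cells. A cluster of all cells took a name when at least 5 markers of a class were raised, by 2-fold and on at least 10 UMIs. Neuron-like clusters among the neural cells needed 5 as well. A place along the head-tail axis needed 5, or 3 with 1 of them among the leading genes. Floor plate and roof plate names were given after these. Clusters with conflicting markers stayed unnamed, a rule set after the clusters were seen. Scrublet scores marked 6.76% of wild-type and 4.30% of Usb1-null cells as doublets, which were kept in the main values.

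UMIs were summed per library and region and divided by the summed UMIs of all genes. Poisson, Clopper-Pearson and conditional binomial intervals are exact (scipy 1.17.1). Genes on either strand were sought that overlap a factor or lie within 5000 bases of it. On the same strand lay Ehbp1, near Otx1 and not overlapping it, with 4268 and 6890 UMIs and a whole-library ratio of 1.05 (1.01 to 1.09). From each list of other genes, those named are the 2 with the largest log2 ratio in size among genes with at least 100 UMIs in neural cells, together with Fgf8, Wnt1, Pax2 and Fgf17. The code was tested on simulated counts. The members, gene lists and tests were chosen with earlier results of these data known. Alternatives changed the scaling, minimum UMIs and genes, doublets, clustering, seed, thinning and neural gate. Leaving out or adding single clusters was tried after seeing the data. Values of single forebrain-like clusters are not reported here.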

Additional observations from a re-analysis of the deposited data

How the results depend on the processing

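Of 249 values recomputed under 19 alternative settings, 245 moved by less than their counting interval, 4 moved and none reversed. With neural cells taken as those with a UMI of Sox1, Sox2 or Sox3, the log2 ratio was 0.032 for Otx1, -0.087 for Otx2 and 0.86 for Rax, the last a ratio of 1.81 (0.838 to 4.33). With at least 1000 genes per cell, the log2 ratio of the forebrain and optic share was -0.43, a ratio of 0.740 (0.665 to 0.824), and the midbrain and boundary share ratio was 1.06 (0.931 to 1.21). The cause was not tested. Of 237 ratios, 221 kept their call. The 16 exceptions were En1 over neural cells with wild-type region shares, En1 among midbrain and boundary cells in 2 settings, 12 among other neural cells, where Otx1, Otx2, En1, En2 and Emx2 each gained or lost a call, and Emx2 outside the neural cells without doublets. Most of the values are given beside those results, but not every En1 value among other neural cells. Over neural cells, ratios ranged from 1.47 to 1.97 for En1, 1.69 to 2.04 for En2 and 1.22 to 1.83 for Gbx2, and over all cells from 1.62 to 2.27 for Gbx2. Adding a low-UMI cluster of 1444 cells to the neural cells, or the Wnt8b-led cluster to forebrain and optic, both chosen after seeing the clusters, changed no call in those cells. No paired analysis was possible because each group had 1 library. Depth limited Gbx2, Rax and Fezf1 most.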
